A study of Mus musculus with 12 samples.

Results

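The axoneme is the shaft of microtubules inside cilia and sperm flagella, and axonemal dyneins are the ATP-driven motors that make it bend. Each outer and inner dynein arm is built from heavy chains (Dnah genes), which carry the motor, and from intermediate and light chains (Dnaic, Dnal and Dnali genes). Dnaaf genes encode factors that assemble the arms in the cytoplasm. Cfap genes encode cilia and flagella associated proteins, among them parts of the central apparatus, of the radial spokes and of the lining of the doublet microtubules. In the testis, spermatocytes and spermatids make most of these messages while the tail is built. The heavy chains of the outer arm are used in different places, since Dnah8 and Dnah17 are known from sperm tails and Dnah5, Dnah9 and Dnah11 from multiciliated cells.

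The genes described here are every row whose symbol starts with Dnah, Cfap, Dnaaf, Dnaic or Dnal followed by a number, together with Dnali1. The rule found 55 of 20788 genes in the table, and it used names only, not measured values.

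RNA of whole testes of male F1 mice was sequenced in 4 groups of 3 libraries. Per the study's methods, the fathers were ICR males (the labels write IRC mouse) whose testes received lentivirus at 4 weeks of age, and they were mated with untreated females and the sons raised to 8 weeks, whereas the design text of the series places the virus in the F1 testes. In the knockdown group the virus carried a mixture of 3 short hairpins against the long non-coding RNA lncRNA5251, and 3NC is the negative control on the same LV3 backbone. In the overexpression group it carried full length lncRNA5251, and 5NC is the LV5 vector itself. The mice carry no named allele, and no row of the table is named lncRNA5251, so the target was not checked. Nothing in the labels says that the 3 libraries of a group come from separate animals, so the p-values below measure the spread between libraries, which may be technical. Libraries of 1 group differed by more than counting noise, with a chi-square per degree of freedom of 3.44 to 39 over the 12 pairs.

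Depth was 12719699 to 15771655 estimated reads per library, and the 55 genes took 1.03% to 1.36% of them. In 2 libraries, 3NC replicate 2 and knockdown replicate 1, genes of white blood cells stood apart. The summed level of the 13 marker genes was 535.2 and 706.8 CPM (counts scaled to library size, with TMM factors) there, against 111 to 151.3 in the other 10 libraries. The summed level of 12 epididymis genes was 38.99 to 308.5 CPM in 5NC, 47.88 to 87.25 in 3NC, 22.01 to 35.47 in the knockdown group and 11.66 to 20.05 in the overexpression group. Markers of round spermatids (1731 to 2373 CPM) and of elongating spermatids (20760 to 28610 CPM) were high in every library, as fits the labelled tissue. Less RNA per cell and fewer cells of a type cannot be told apart in whole testis.

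Promoter sequences are shown first because cilia genes are known to share a binding site, the X-box, for regulatory factor X (RFX) proteins. In the RefSeq promoter table (build GRCm38.p6), 46 of the 55 genes had an entry. The 250 bases before the start were searched on both strands. A paired X-box, written here as GTNNCC and GNNAC with NN between them, was found in 9 of the 46 promoters (19.6%) and in 3.12% of all 27025 promoters of the same length. The windows below hold every match in these genes, 5′ to 3′ on the strand of the gene, with the motif in capitals.

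Dnaic1 (chr4:41569755-41569793, plus strand): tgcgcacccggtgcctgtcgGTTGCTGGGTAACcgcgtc
Dnaic2 (chr11:114727366-114727418, plus strand): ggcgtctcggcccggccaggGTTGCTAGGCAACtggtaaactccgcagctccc
Dnah9 (chr11:66168601-66168653, minus strand): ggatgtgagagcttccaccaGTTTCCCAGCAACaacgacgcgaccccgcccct
Cfap20, first match (chr8:95434938-95434990, minus strand): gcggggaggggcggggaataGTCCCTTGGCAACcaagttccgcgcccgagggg
Cfap20, second match (chr8:95435044-95435096, minus strand): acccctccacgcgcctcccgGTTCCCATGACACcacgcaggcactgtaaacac
Cfap43 (chr19:47837401-47837453, minus strand): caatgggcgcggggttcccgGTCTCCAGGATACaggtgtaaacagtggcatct
Cfap46 (chr7:139683816-139683851, minus strand): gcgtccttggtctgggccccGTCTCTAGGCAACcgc
Cfap58 (chr19:47937633-47937685, plus strand): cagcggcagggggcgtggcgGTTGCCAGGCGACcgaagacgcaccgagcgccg
Cfap97d2 (chr8:13705843-13705888, plus strand): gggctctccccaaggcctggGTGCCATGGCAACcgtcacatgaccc
Cfap99 (chr5:34288610-34288662, plus strand): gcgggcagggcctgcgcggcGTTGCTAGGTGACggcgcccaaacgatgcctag

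The short X-box core GTTGCC, which can lie inside the paired motif, was in 15 of the 46 promoters (32.6%) and in 10.5% of all promoters. Its variant GTTACC was in 7 (15.2%) against 5.98%. Of the 9 motifs searched, a MYB site (CAGTTG) was in 10 (21.7%) against 11.1%, and a forkhead site (GTAAACA) in 3 (6.52%) against 3.09%. The CCAAT box was in 17 (37%) against 34.5%, the GC box (GGGCGG) in 19 (41.3%) against 32.9%, though in 45.5% of the 16284 promoters of genes in the table, and the cyclic AMP response element (TGACGTCA) in 1 (2.17%) against 1.62%. The TATA box (TATAAA) was in 2 (4.35%), against 13% of all promoters and 10.45% of those of genes in the table. These shares are descriptions, and no difference between them was tested. A match describes these letters in this window and is not a measured binding site, and a window without them says nothing about the factor. The paired motif was found in genes of very different level, from Cfap97d2 and Dnah9 near the bottom to Cfap43, Cfap20 and Cfap58 in the upper part.

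The levels of these genes were high for most of them. The median of the mean FPKM (reads scaled to gene length and to library depth, as deposited) was 31.5 over the 55 genes and 6.44 over all 16388 genes tested. Of the 55, 49 lay above that median of all genes, 11 had a mean of at least 100 FPKM and 4 had a mean under 1. The highest were Cfap206, a radial spoke protein, with 413.7 ± 19.2 FPKM (SD, n = 12), Cfap36 with 377 ± 58.9, Dnaaf1 with 317.7 ± 34.3, Cfap97d1 with 191.1 ± 26.4 and Cfap298 with 171.8 ± 15.1. Neighbours in the order of levels were seldom apart, since the ranges over the 12 libraries did not overlap for 2 of the 54 neighbouring pairs, Dnaaf1 over Cfap97d1 and Cfap73 over Dnah9.

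**Figure D1:**
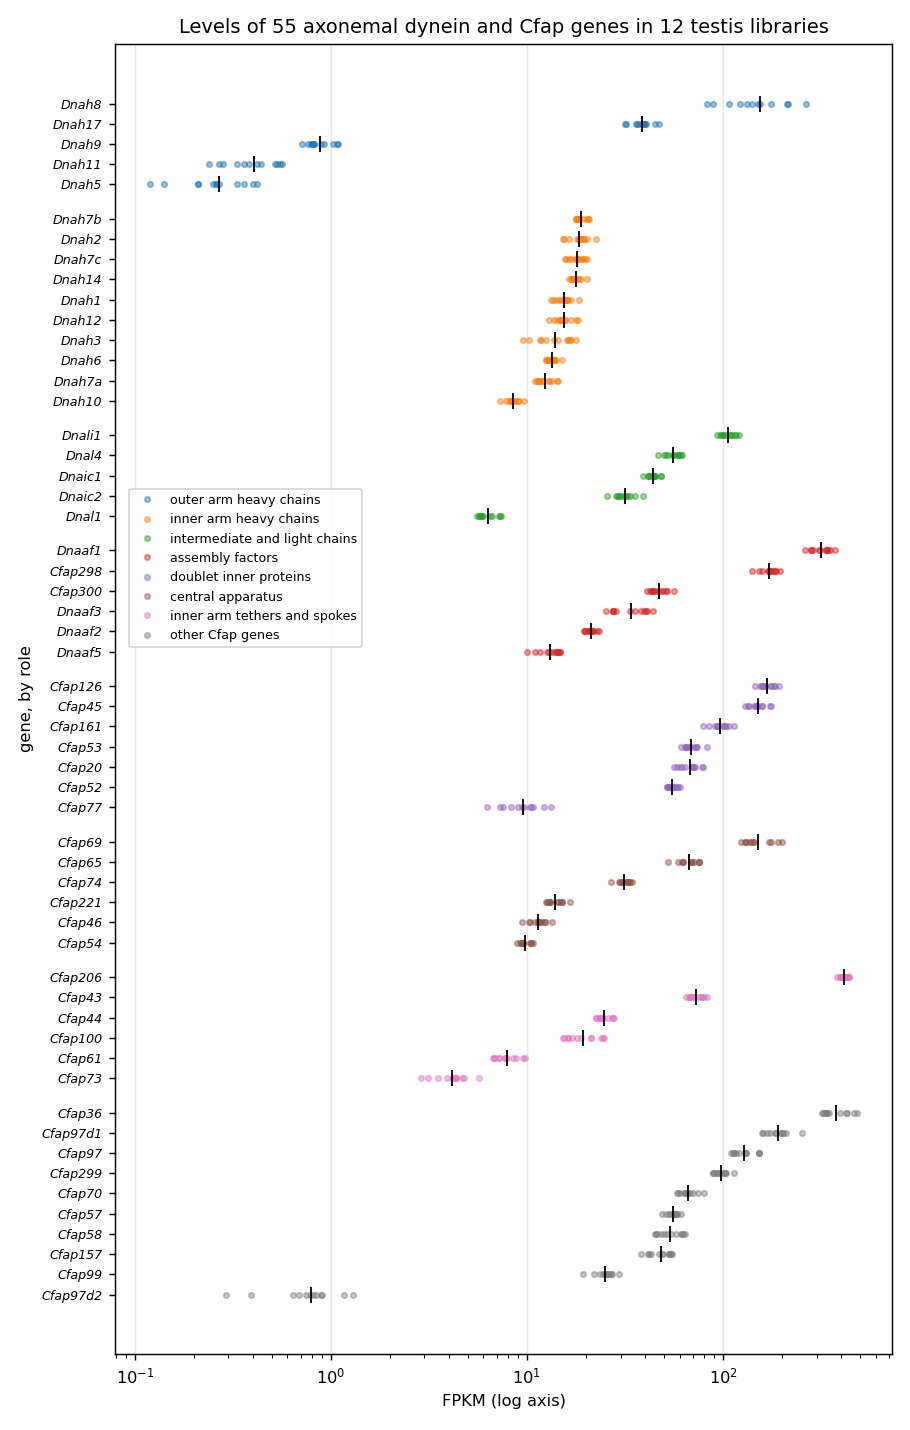
The level of each of the 55 genes is plotted in FPKM on a log axis, grouped by role, with 1 point per library (12 libraries) and a black tick at the mean. Dnah8 and Dnah17 stand far above Dnah9, Dnah11 and Dnah5, the inner arm heavy chains lie close together, and Dnah8 is the most spread of the abundant genes.

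The outer arm heavy chains fell into a high and a low set. Dnah8 (chr17:30626935-30875762, plus strand, GRCm38) had a mean of 153.8 ± 54.4 FPKM and Dnah17 one of 38.6 ± 4.53 FPKM (SD, n = 12). Dnah8 was above Dnah17 in each of the 12 libraries, by 2.27 to 5.58 times. On scaled reads per kilobase of GENCODE exons the means were 78.2 for Dnah8 and 30.9 for Dnah17, so the size of the gap depends on the lengths and scaling used. Dnah9 (0.876 ± 0.126 FPKM), Dnah11 (0.407 ± 0.115) and Dnah5 (0.269 ± 0.0945), the motors known from multiciliated cells, were all under 1. The range of Dnah9, 0.71 to 1.09 FPKM, lay above that of Dnah11, 0.24 to 0.56, and the latter overlapped that of Dnah5, 0.12 to 0.42. These 3 genes rest on few reads, with a mean of 139.7 for Dnah9, 51 for Dnah11 and 61.4 for Dnah5 per library. Of the factors that start the multiciliated programme, Mcidas was at 0 to 0.06 FPKM and Gmnc at 0.03 to 0.24 FPKM, while other genes of that programme were higher, Ccno at 0.89 to 2.18, Tppp3 at 7.6 to 16.52, Foxj1 at 24.04 to 45.27 and Deup1 at 114.5 to 157.47 FPKM.

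The inner arm heavy chains were alike in level. All 10 had a mean between 8.46 and 18.8 FPKM, with Dnah7b (18.8 ± 1.08), Dnah2 (18.5 ± 2.04), Dnah7c (17.9 ± 1.5) and Dnah14 (17.7 ± 1.07) at the top. Dnah1 (15.4 ± 1.43), Dnah12 (15.4 ± 1.58), Dnah3 (13.9 ± 2.74), Dnah6 (13.4 ± 0.793) and Dnah7a (12.4 ± 1.17) followed, and Dnah10 (8.46 ± 0.625) was the lowest of them. Dnah7a, Dnah7b and Dnah7c are copies on chromosome 1, and 40.3% to 48.5% of their stretches of 50 bases occur in another gene, so their separate values are uncertain. The table gave fractional reads for each of these 3.

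Among the smaller subunits, the inner arm light chain gene Dnali1 was at 106 ± 8.75 FPKM, Dnal4 at 55.9 ± 4.85 and Dnal1, the light chain bound to the outer arm motor, at 6.3 ± 0.677. The intermediate chain genes Dnaic1 (43.9 ± 2.68) and Dnaic2 (31.5 ± 3.52), which tie the outer arm to the doublet, did not overlap (39.11 to 48.35 against 25.7 to 38.89 FPKM), and both overlapped Dnah17, at 31.65 to 47.28. The assembly factors ranged more widely, from Dnaaf1 down to Dnaaf3 (34 ± 6.53), Dnaaf2 (21.1 ± 1.17) and Dnaaf5 (13.2 ± 1.56). Dnaaf1 shares 20.7% of its exon bases with Taf1c on the other strand, Cfap298, also needed for arm assembly, shares 53.6% with overlapping gene models, and Dnaaf2 shares 71.4% with others. The libraries do not mark strand, so reads in stretches shared on opposite strands cannot be told apart. For Dnaaf2, 32.65% of the exon bases are shared on the other strand, and the rest of its shared bases lie on the same strand.

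Of the Cfap genes, the lining proteins of the doublet microtubule were led by Cfap126 (168.1 ± 14 FPKM) and Cfap45 (150.2 ± 14.4). The other members of that role were Cfap161, Cfap53, Cfap20 and Cfap52 at 55.2 to 96.8 FPKM and Cfap77 at 9.53. The central apparatus genes spanned 9.75 FPKM (Cfap54) to 151.1 (Cfap69), with Cfap65 at 66.9, Cfap74 at 31.4, Cfap221 at 14 and Cfap46 at 11.4. Cfap43 (72.8) and Cfap44 (24.7), which form the tether that holds an inner dynein, differed from each other, and their ranges of 65.12 to 83.07 and 22.38 to 27.91 FPKM did not overlap. Cfap73, a partner of Cfap100 (19.4) in an inner arm anchor, was at 4.17 and Cfap61, a spoke protein, at 7.91. The lowest Cfap gene was Cfap97d2 (0.788 ± 0.282 FPKM), with 13 to 48 reads per library.

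The spread of these genes between libraries was small. The median SD of log2 CPM over the 12 libraries was 0.154 for the 50 members with a mean of at least 5 FPKM, and 0.177 for all 9079 genes at that level. The highest library exceeded the lowest by a median of 1.39 times, and by at least 2 times in 5 members, which were Cfap97d2, Dnah5, Dnah8, Dnah11 and Cfap77. Of these only Dnah8 was abundant. Its SD of log2 CPM was 0.52. Of the 9079 genes, 328 had a higher one, while among the 16 genes with a mean CPM at least that of Dnah8, itself included, none had a higher one.

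Dnah8 varied widely within groups. Its FPKM was 154.33, 176.64 and 89.37 in the 3NC libraries, 107.62, 150.04 and 122.7 in 5NC, 82.65, 132.76 and 214.08 in the knockdown group and 263.94, 139.89 and 211.64 in the overexpression group. The lowest library was in the knockdown group and the highest in the overexpression group, and the overexpression libraries overlapped those of 5NC. The log2 fold change was 0.75 ± 0.35 (SE) for the overexpression group against 5NC, with an adjusted p of 0.429 by edgeR, and 0.06 ± 0.35 for the knockdown group against 3NC, with an adjusted p of 0.968. The latter was -0.35 without knockdown replicate 3, -0.14 without 3NC replicate 3 and 0.504 without both libraries that hold white blood cell genes, and it was below 0 in the limma fits, so it has no stable direction. Dnah8 alone held 10.8% to 26.7% of the reads of the 55 genes. The summed level of the 55 genes differed by 1.38 times between its extreme libraries, and without Dnah8 by 1.26 times.

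The bases before the RefSeq start of Dnah8 are shown because it is the member with the largest spread among the abundant ones. They hold no paired X-box, and the variant X-box core GTTACC is in capitals.

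Dnah8 (chr17:30626686-30626935, plus strand): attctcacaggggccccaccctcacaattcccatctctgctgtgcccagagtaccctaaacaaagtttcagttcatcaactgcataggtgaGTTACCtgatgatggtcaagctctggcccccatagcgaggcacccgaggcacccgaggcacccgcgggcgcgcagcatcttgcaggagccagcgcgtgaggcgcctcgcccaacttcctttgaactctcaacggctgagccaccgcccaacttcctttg

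After this spread was seen, the tested genes nearest to Dnah8 on chromosome 17, 4 on each side, were compared with it over the 12 libraries. The level of Glo1 (17:30592861-30612659), which encodes glyoxalase 1 and lies just before Dnah8, went with that of Dnah8, with a Pearson r of 0.855 (permutation p = 0.00054, adjusted p = 0.00272 over 8 genes) and a Spearman rho of 0.895 (permutation p = 0.00016, adjusted p = 0.00128) on the log2 CPM scale. The same held for Btbd9 (17:30215524-30582621), the next gene on that side, with an r of 0.842 (permutation p = 0.00068, adjusted p = 0.00272) and a rho of 0.839 (permutation p = 0.00136, adjusted p = 0.00544). Without knockdown replicate 1 and overexpression replicate 1, the libraries farthest from the median of Dnah8, r was 0.832 for Glo1 and 0.728 for Btbd9. After the group means were taken out it was 0.86 and 0.816, given as a description. The permutations shuffled all 12 libraries regardless of group, so their p-values do not test the relation within groups. Among all 16387 other tested genes, Glo1 had the highest r with Dnah8 and Btbd9 the second highest.

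The genes farther out had lower correlations. Zfand3, beyond Btbd9, had an r of 0.168 (permutation p = 0.6, adjusted p = 0.686) and Umodl1, the nearest tested gene after Dnah8, one of 0.28 (permutation p = 0.374, adjusted p = 0.499), and none of the other 4 had an adjusted permutation p under 0.05. The correlation of the other 54 members with Dnah8 ran from -0.345 to 0.547, given as a description. Neither Glo1 (log2 fold change 0.48, adjusted p = 0.655 by edgeR) nor Btbd9 (0.47, adjusted p = 0.27) passed the test in the overexpression group against 5NC.

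**Figure D2:**
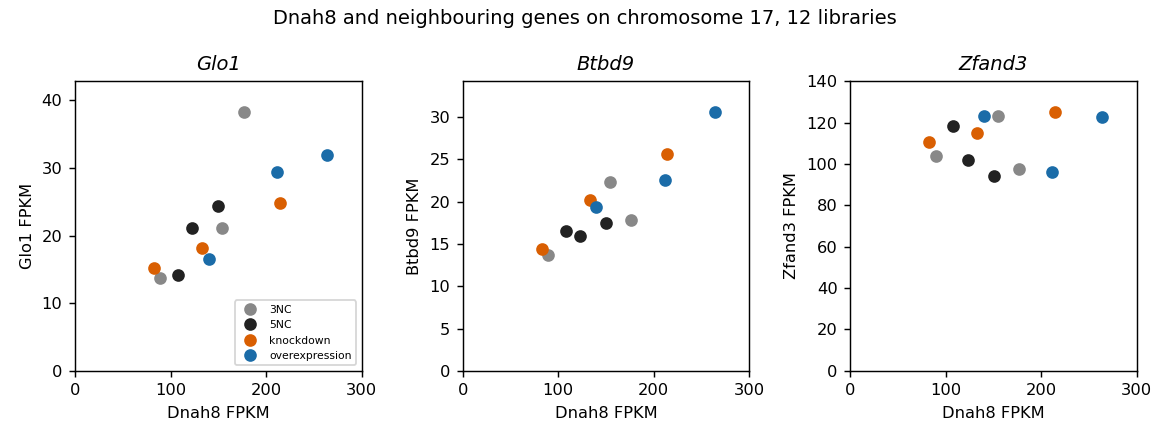
The FPKM of Glo1, Btbd9 and Zfand3 is plotted against that of Dnah8, with 1 point per library coloured by group. Glo1 rises with Dnah8 within each group as well as across them. Btbd9 rises with it across the groups and within the knockdown and overexpression groups, but not in order within 3NC and 5NC. Zfand3, at 94.16 to 125.09 FPKM, does not rise with Dnah8.

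The comparison of the knockdown group with 3NC asks whether these genes differ after virus meant to lower lncRNA5251. None of the 55 members passed an adjusted p of 0.05 in edgeR's quasi-likelihood test, and neither did any of all 16388 genes (0%). At an unadjusted p under 0.05 there were 2 members (3.64%), Dnah5 and Cfap20, against 5.64% of all genes. DESeq2 called 0 members and 16 of all genes, and limma called none. The members' log2 fold changes ran from -0.38 to 1.14, with a median of 0.03 beside -0.02 over all genes, and 29 were above 0 and 26 below. The median was -0.0677 without 3NC replicate 2 and -0.0089 without both libraries that hold white blood cell genes, so its sign is not stable. The 95% interval lay within ±1 for 53 of the 55, the other two being Dnah5 and Cfap97d2, and within ±0.5 for 38. For these 53 genes a 2-fold difference in either direction lies outside the interval.

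Dnah5 had the smallest p of the members in this comparison. It was at 0.12, 0.14 and 0.21 FPKM in the 3NC libraries and at 0.36, 0.42 and 0.26 in the knockdown libraries, which do not overlap. The log2 fold change was 1.14 ± 0.26 (SE), with a 95% interval of 0.57 to 1.71 and an adjusted p of 0.761 by edgeR. It stayed between 0.98 and 1.43 when single libraries were left out, and it was 1.03 without both libraries that hold white blood cell genes. Dnah5 was also at 0.4, 0.27 and 0.33 FPKM in the overexpression group and at 0.21, 0.26 and 0.25 in 5NC, again without overlap, with a log2 fold change of 0.53 ± 0.26 and an adjusted p of 0.444 by edgeR. In the comparison of 5NC with 3NC it was 0.54 ± 0.26, with an adjusted p of 0.482. The whole range is 29 to 98 reads per library, so Dnah5 is close to the lower end of what this depth can measure. Markers of efferent duct and multiciliated cells (12 genes) summed to 508 to 534.8 CPM in the overexpression group and 414.5 to 423.4 in 5NC, without overlap, and 490.3 to 530.1 in the knockdown group within the 437 to 581.1 of 3NC. The genes of this list differ widely in level, from Mcidas at 0 to 0.06 FPKM to Deup1 at 114.5 to 157.47 FPKM. Abundant genes such as Deup1 and Foxj1 (24.04 to 45.27 FPKM) therefore weigh more in the sum than scarce ones. The summed level of the epididymis genes was lower in both treated groups than in their controls, as given above. Of those 12 genes, 6 were tested. Among them Crisp1 ran from 0.05 to 192.4 FPKM, highest in 5NC replicate 2, the library of the highest sum. Lcn5 and Gpx5, also on that list, stayed at or below 0.14 FPKM. The median log2 fold change of the 8 tested efferent duct and multiciliated genes was 0.19 in the overexpression group and -0.23 in the knockdown group, where Dnah5 was higher. The part of either list in the difference was not tested.

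Cfap20, which links the tubules of the doublet, was at 58.05, 56.53 and 60.65 FPKM in the knockdown libraries and at 63.92, 69.49 and 69.98 in 3NC. The groups did not overlap, but the log2 fold change was small, -0.2 ± 0.08 (SE), and its adjusted p was 0.764 by edgeR. Cfap97d1 was also lower without overlap (157.43, 187.23 and 184.34 against 196.9, 210.55 and 253.47 FPKM), with a log2 fold change of -0.29 ± 0.14 and an adjusted p of 0.764 by edgeR. Without 3NC replicate 3 the log2 fold change was -0.12 for Cfap20 and -0.12 for Cfap97d1. Including Cfap97 (-0.16 ± 0.12), named after its values were seen, 4 members (7.27%) had all 3 knockdown libraries on 1 side of all 3 of 3NC, 1 above and 3 below, and 11.3% of all genes did. The other Cfap genes with the smallest p were Cfap65 (0.27 ± 0.13), Cfap99 (0.21 ± 0.14) and Cfap77 (0.36 ± 0.26) on the higher side and Cfap36 (-0.27 ± 0.16) on the lower side, all with overlapping groups. Single libraries weigh on these as well, since Cfap36 was at -0.0517 and Cfap97 at -0.0946 without 3NC replicate 3, Cfap65 at 0.14 and Cfap99 at 0.11 without 3NC replicate 2, and Cfap77 at 0.17 without knockdown replicate 2. Dnaaf3, an assembly factor, had a log2 fold change of 0.44 ± 0.2 with an adjusted p of 0.764.

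**Figure D3:**
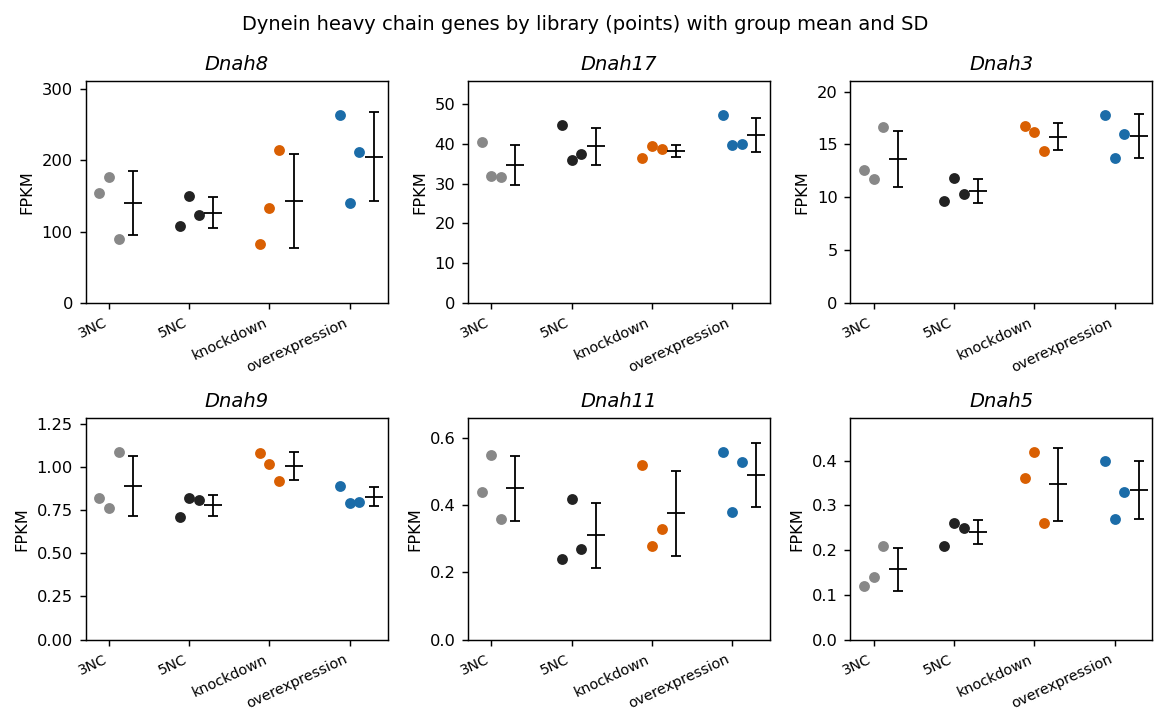
The FPKM of 6 dynein heavy chain genes is plotted by group, with 1 point per library and the group mean and SD beside the points, and each axis starts at 0. The knockdown libraries of Dnah5 lie above those of 3NC, the overexpression libraries of Dnah3 lie above those of 5NC, and Dnah8 overlaps in every pair of groups.

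The comparison of the overexpression group with 5NC asks the same for virus meant to raise lncRNA5251. Again no member passed the adjusted p of 0.05 in edgeR (DESeq2 called 1, Dnah3), while 51 of all genes did (0.311%), 34 higher and 17 lower. At an unadjusted p under 0.05 there were 5 members (9.09%), namely Dnah3, Dnah11, Cfap58 and Cfap100 higher and Dnah12 lower, beside 11.9% of all genes. In 9 members (16.4%) all libraries of one group lay on 1 side of all of the other, 6 higher and 3 lower, beside 21.3% of all genes. The median log2 fold change was 0.04, against -0.01 over all genes, with 35 members above 0 and 20 below. It was -0.0112 without scaling and -0.0059 to -0.0048 with limma on FPKM, so its sign is not stable. The 95% interval lay within ±1 for 51 members, the exceptions being Cfap77, Dnah5, Dnah8 and Dnah11.

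Dnah3, an inner arm motor, came closest to the threshold. It was at 17.79, 13.67 and 15.95 FPKM in the overexpression libraries and at 9.6, 11.84 and 10.29 in 5NC, so each overexpression library was above each control library. The log2 fold change was 0.63 ± 0.16 (SE), with a 95% interval of 0.28 to 0.98 and an adjusted p of 0.144 by edgeR. DESeq2 gave the same size, 0.63, with an adjusted p of 0.0137, so the call depends on the tool. In edgeR it was 0.0493 when 3NC replicate 3, which only shares the fit, was left out. The level of Dnah3 was 16.72, 16.15 and 14.34 FPKM in the knockdown group and 12.57, 11.7 and 16.63 in 3NC, where replicate 3 stood above the others. Against 3NC, 5NC was lower by a log2 fold change of -0.41 ± 0.16, with an adjusted p of 0.406 by edgeR, and by -0.19 without 3NC replicate 3. Dnah3 shares 10.5% of its exon bases with Lyrm1 on the other strand.

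Cfap58, a protein of the sperm tail, was at 61.45, 51.96 and 57.35 FPKM in the overexpression libraries and at 44.78, 45.7 and 46.04 in 5NC, a difference of 0.37 ± 0.13 on the log2 scale with an adjusted p of 0.265 by edgeR. In 5NC it was also below each 3NC library (49.77, 48.12 and 63.68), by -0.28 ± 0.13 with an adjusted p of 0.461 by edgeR, and by -0.0942 without 3NC replicate 3. The summed level of round spermatid markers was also higher in the overexpression group than in 5NC. These 12 genes summed to 2025 to 2274 CPM in the overexpression group and 1827 to 1946 in 5NC, without overlap, 1731 to 2373 in 3NC and 2041 to 2327 in the knockdown group. Their median log2 fold change was 0.31 for the overexpression group against 5NC and -0.26 for 5NC against 3NC, none of the 12 was called by edgeR, and their part in the result was not tested. Dnah12 was at 14.89, 12.95 and 15.63 FPKM against 16.81, 18.27 and 17.83 in 5NC (log2 fold change -0.23 ± 0.09, adjusted p = 0.326 by edgeR, and -0.15 without overexpression replicate 2), and 5NC lay above 3NC as well (0.19 ± 0.09, adjusted p = 0.471). These comparisons share the 5NC libraries, so their opposite signs are not independent of each other.

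Dnah11 was at 0.56, 0.38 and 0.53 FPKM in the overexpression libraries and at 0.24, 0.42 and 0.27 in 5NC. On the scaled CPM the groups did not overlap, and on FPKM 1 library of each crossed. The log2 fold change was 0.79 ± 0.24 (SE), with an adjusted p of 0.21 by edgeR. It rests on 31 to 75 reads per library, and the read counts of this gene were fractional in the table. Cfap100 was at 24.32, 21.29 and 18.02 FPKM against 15.51, 16.27 and 16.15 in 5NC (0.43 ± 0.19, adjusted p = 0.392 by edgeR). The Cfap genes next in order were Cfap157 (0.29 ± 0.14) on the higher side and Cfap70 (-0.2 ± 0.09), Cfap44 (-0.15 ± 0.09) and Cfap161 (-0.16 ± 0.11) on the lower side.

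By role, all 5 outer arm heavy chains had a log2 fold change above 0 in the overexpression group, from 0.14 (Dnah9) to 0.79 (Dnah11), with a median of 0.53, and none passed the test. For 5NC against 3NC, which shares the 5NC libraries, 2 of these 5 were above 0, with a median of -0.16, and Dnah5, Dnah9 and Dnah11 rest on few reads. Of the 10 inner arm heavy chains 7 were above 0, with a median of 0.04. The intermediate and light chains had a median of -0.08, the assembly factors one of 0.07 and the central apparatus genes one of 0.01. In the knockdown group the medians were 0.15 for the outer arm heavy chains, 0.02 for those of the inner arm, 0.13 for the assembly factors and -0.09 for the Cfap genes without a role given here.

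**Figure D4:**
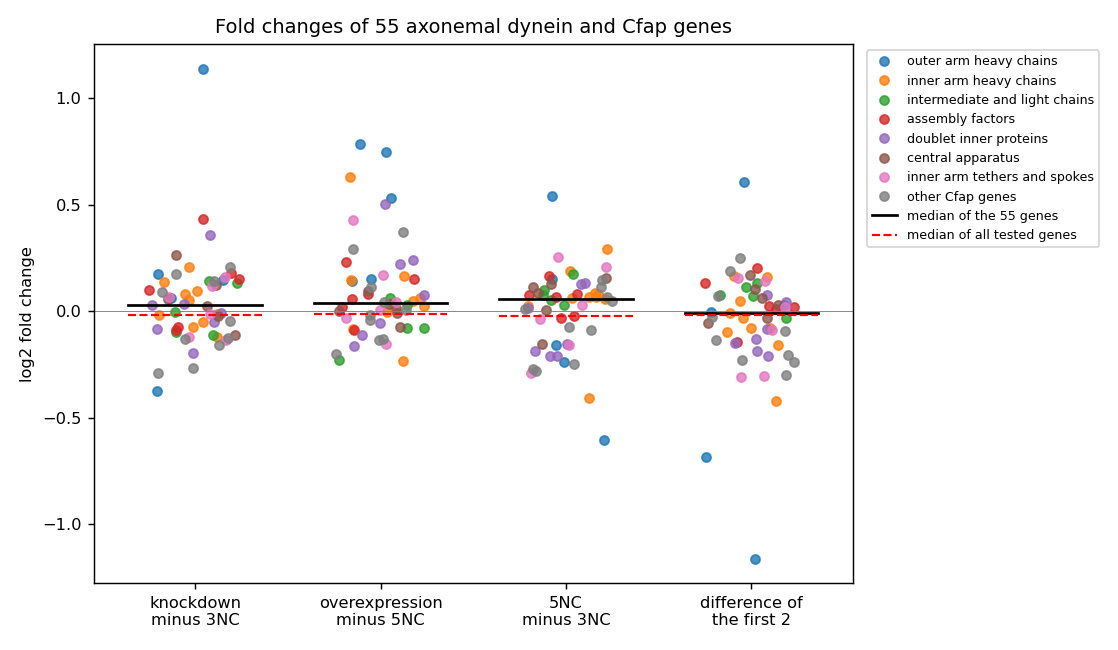
The log2 fold change of each of the 55 genes is plotted for the 3 pairs of groups and for the difference between the knockdown and the overexpression effect, coloured by role, with the median of the 55 genes (black) and of all tested genes (dashed red). Most genes lie close to 0, and the gene farthest from 0 is Dnah5 for the knockdown group and Dnah11 in the other 3 columns.

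The control groups, 3NC on the LV3 backbone and 5NC on LV5, were compared to see how far groups differ when neither virus targets or carries lncRNA5251. No member passed the adjusted p of 0.05 between 5NC and 3NC in edgeR or in DESeq2, and in edgeR 21 of all genes did (0.128%). At an unadjusted p under 0.05 there were 4 members (7.27%), Dnah2 higher and Dnah3, Dnah11 and Cfap58 lower, beside 10.8% of all genes. Dnah2, an inner arm motor, was at 22.49, 20.33 and 19.54 FPKM in 5NC and at 19.15, 15.5 and 15.35 in 3NC, which is 0.29 ± 0.11 (SE) on the log2 scale, with an adjusted p of 0.397 by edgeR. Dnah11 was lower in 5NC by -0.61 ± 0.24 with an adjusted p of 0.418. In 4 members (7.27%) the groups did not overlap, beside 13.0% of all genes. The other Cfap genes with the smallest p were Cfap44 (0.21 ± 0.09), Cfap20 (0.13 ± 0.08) and Cfap298 (0.17 ± 0.11) on the higher side and Cfap97d1 (-0.27 ± 0.14) and Cfap126 (-0.21 ± 0.12) on the lower side. The median of the members was 0.06, and -0.04 without 3NC replicate 2, so its sign rests on that library.

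The knockdown and overexpression effects were compared with each other in the same fit. No member passed the adjusted p of 0.05 for the difference in edgeR or in DESeq2, and in edgeR 4 of all genes did (0.0244%). Dnah11 was the 1 member (1.82%) with an unadjusted p under 0.05, beside 4.63% of all genes. Its effect was -0.38 ± 0.24 in the knockdown group and 0.79 ± 0.24 in the overexpression group, a difference of -1.16 ± 0.34 (SE), with an adjusted p of 0.799 by edgeR. The Cfap genes with the smallest p for the difference were Cfap97d1 (-0.3 ± 0.2), Cfap299 (-0.24 ± 0.16) and Cfap58 (-0.23 ± 0.18) on the lower side and Cfap99 (0.25 ± 0.2), Cfap44 (0.14 ± 0.13) and Cfap65 (0.17 ± 0.18) on the higher side. In the test for any difference among the 4 groups no member was called and 39 of all genes were (0.238%). There, 6 members (10.9%) had an unadjusted p under 0.05, beside 11.4% of all genes, and the smallest adjusted p was 0.192 for Dnah5. DESeq2 called Dnah3 and Dnah5 in that test.

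Members of different base composition deviated differently from library to library. The GC content of their longest transcripts runs from 40.9% (Cfap69) to 58.6% (Dnaaf5). Across the 55 members, the correlation between GC content and the deviation of a library from the gene's mean ran from -0.519 (overexpression replicate 3) to 0.66 (overexpression replicate 2). It is given as a description, since genes share their library. Over all tested genes it ran from -0.327 to 0.317, with the same sign as in the members in each of the 12 libraries, so it is not particular to these 55 genes. It was below 0 in replicates 2 and 3 of 3NC, replicates 2 and 3 of 5NC and replicate 3 of the overexpression group, and above 0 in the other 7 libraries, among them all 3 of the knockdown group. The sum of 12 spermatocyte markers was 1476 to 1947 CPM in those 5 libraries and 1386 to 1453 in the other 7, and its part in the pattern was not tested. The 18 members of highest GC content (52.5% to 58.6%, Dnaaf3 and Dnah17 among them) and the 18 of lowest (40.9% to 47.1%, Dnah12 among them) had median deviations of opposite sign in 8 of the 12 libraries. With offsets for GC content in the fit, no member was called in any comparison, and the log2 fold change of Dnah3 in the overexpression group was 0.64 with an adjusted p of 0.0709. Other fold changes moved more. In the knockdown group Cfap97 was at -0.0291 with these offsets and -0.16 without them, and Cfap20 at -0.157 and -0.195.

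**Figure D5:**
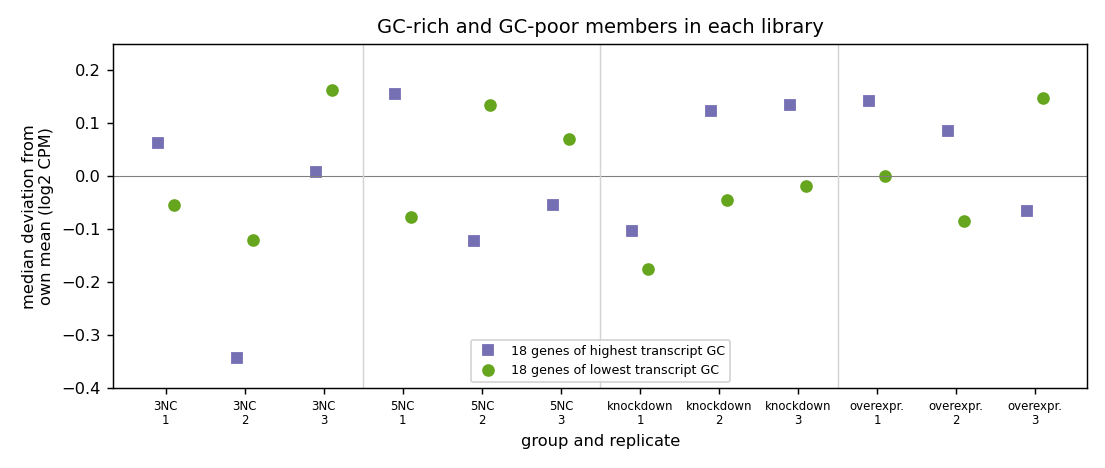
The median deviation of the 18 members of highest and the 18 of lowest GC content from their own means over 12 libraries is plotted on the log2 CPM scale for each library, grouped by condition. The order of both sets turns between libraries of the same group in 3NC, 5NC and the overexpression group, the GC-rich set is the higher in all 3 knockdown libraries, and 3NC replicate 2 has the lowest value for the GC-rich set, -0.34.

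Genes that act with the members were taken from lists. None of the 42 tested other axoneme genes (radial spoke, tektin, nexin link and central pair genes) was called in any comparison. Their median log2 fold change was 0.1 in the knockdown and 0.07 in the overexpression group. The smallest p among them in the overexpression group had Spag6, a central apparatus gene (0.48 ± 0.15, adjusted p = 0.223 by edgeR), and Tekt2, which encodes a tektin of the doublet (0.36 ± 0.12, adjusted p = 0.283). Of the 16 other assembly and docking genes none was called, and Pih1d3, a cofactor of arm assembly, had the smallest p in the overexpression group (-0.61 ± 0.14, adjusted p = 0.107 by edgeR). Pih1d3 was at 13 ± 1.21 CPM in the overexpression group, 20 ± 2.86 in 5NC, 14.8 ± 1.47 in 3NC and 12.4 ± 1.11 in the knockdown group (SD, n = 3).

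Of the 19 dynein light chain and cytoplasmic dynein genes and of the 23 genes of intraflagellar transport, which carries parts into the growing tail, none was called either. In the knockdown group the smallest p had Dynlrb2 (0.45 ± 0.17) among the former and Ift20 (-0.23 ± 0.09) and Ift74 (-0.27 ± 0.11) among the latter, each with an adjusted p of 0.764 by edgeR. Of the 19 listed regulators of ciliogenesis 15 were tested and none was called. In the overexpression group the smallest p had Rfx4 (0.39 ± 0.12, adjusted p = 0.218 by edgeR) and Foxj1, the forkhead regulator of motile cilia (0.57 ± 0.18, adjusted p = 0.238). Rfx2, an RFX factor of spermatids, was at 68.08 to 108.75 FPKM over the 12 libraries.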

How the data were processed

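The authors enriched messenger RNA with oligo(dT) per their methods (the labels name total RNA), sequenced libraries without strand marks and aligned reads with SOAPaligner to mouse genes, build mm10 per the labels. In the deposited table each gene has estimated counts, with fractions in 17.3% of genes, and FPKM values that the authors computed from them. Its 18 further per-sample columns were not used. Counts were rounded, filtered with filterByExpr (16388 of 20788 genes kept) and tested in 1 fit of all 12 libraries with a coefficient per group, by edgeR 4.0.16 in R 4.3.3 (TMM, quasi-likelihood test, Benjamini-Hochberg adjustment, threshold 0.05). Errors of fold changes are SE, and intervals are 95%. DESeq2 1.42.0 and limma 3.58.1 were alternatives. The scripts were tested on simulated data. Depth of 12719699 to 15771655 reads limits genes with few reads, and counting error is only part of their spread.

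Gene positions, GC content, overlaps and stretches of 50 bases came from GENCODE for GRCm38, the build of mm10, and promoters from RefSeq. Correlations of Dnah8 with its neighbours used two-sided permutation tests with 100000 resamples. The members and lists were chosen with earlier results of these data known. The rule for Cfap genes named by fold took, per comparison, the 3 higher and 3 lower with the smallest p. Glo1, Btbd9, Zfand3 and Umodl1 lie outside it and were named after their values were seen, and every member may be named for its level. Of the other lists, the 2 genes with the smallest p per comparison could be named, and some are.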

Additional observations from a re-analysis of the deposited data

How the results depend on the processing

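Of 103 counts of members called under alternatives, 101 were 0, and DESeq2 called 1 member in the overexpression group and 2 among the 4 groups. The single libraries left out below are those of the groups compared, and leaving out 3NC replicate 3, which only shares the fit, called Dnah3 in the overexpression group (adjusted p = 0.0493 by edgeR). Of 45 fold changes of members named in the text, including each one printed, all kept their direction under the alternatives run except that of Dnah8 in the knockdown group, which was -0.0105 with limma on log2 CPM, -0.0175 on log2(FPKM + 0.1), with and without the filter, -0.0171 on log2(FPKM + 1) and -0.354 to 0.353 when single libraries were left out, and the cause was not tested. Leaving out 1 library moved 28 of the 45 by over 1.5 times, and 16 of them moved so without 3NC replicate 3. None of these 45 was called by edgeR with all 12 libraries. The median level of the members was 20.3 scaled reads per kilobase of GENCODE exons against 31.5 FPKM, with both the gene lengths and the scaling for depth changed.

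The counts over all genes moved more. In the knockdown group they were 16 with DESeq2 and 0 to 12 with single libraries left out. In the overexpression group they were 313 with DESeq2, 126 with GC offsets, 107 with only the libraries compared, 82 with limma on log2(FPKM + 0.1), 5 at an adjusted p of 0.001 with a log2 fold change of 1, and 9 to 49 without single libraries. For 5NC against 3NC they were 166 with DESeq2, 67 with GC offsets, 45 without both libraries that hold white blood cell genes, 35 with limma on FPKM without a filter, 33 without scaling, 7 with only the libraries compared, 3 at the stricter threshold, and 3 to 35 without single libraries. For the difference of effects they were 42 with DESeq2, 9 with limma on FPKM without a filter, 2 at the stricter threshold, and 2 to 10 without single libraries. Among the 4 groups they were 572 with DESeq2, 93 with GC offsets, 67 without those 2 libraries, 64 without scaling, and 6 to 81 without single libraries.

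The median of the members ran from -0.0677 to 0.109 in the knockdown group and from -0.0432 to 0.0963 for 5NC against 3NC without single libraries, the lowest being without 3NC replicate 2 in both, and the latter was -0.0424 without both of those libraries. In the overexpression group it was -0.01 without scaling and -0.0059 to -0.0048 with limma on FPKM. Nothing in the labels pairs same-numbered replicates, and the correlations of their deviations from the group means ran from -0.641 to 0.386. For 5NC against 3NC they were -0.007 to 0.313, against -0.267 to 0.065 between different numbers. In the other comparisons the highest correlation was between different numbers. Whether a number marks a shared batch was not tested. With the replicate number as a block, 0 members were called in every comparison, and 21, 5, 2 and 7 of all genes in the overexpression group, for 5NC against 3NC, for the difference and among the 4 groups, and 0 in the knockdown group. GC offsets, the fit without scaling and the fit without both libraries were chosen after seeing the data.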
